A study of Mus musculus with 18 samples.

Results

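The genes described are 9 receptors that steer B cells between the niches of lymphoid tissue, the blood and sites of inflammation: the sphingosine-1-phosphate receptors S1pr1 and S1pr4, the chemokine receptors Cxcr4, Cxcr5, Ccr7, Ccr6, Ccr9 and Cxcr3, and the oxysterol receptor Gpr183. They were found by symbol in a table of RPKM values (reads per kilobase of gene, scaled to sequenced reads), where all 9 were present among 12960 genes. The table holds 18 RNA-seq libraries of mouse splenic B lineage cells: naive, activated and plasma cells of 2 genotypes, with 3 libraries each. The control genotype (Ctrl) was Cd19Cre/+, in which a Cre recombinase is made in B cells. Knockout mice (KO) had G9afl/fl and Cd19Cre/+, so both genotypes carry the Cre allele and differ in the floxed alleles of Ehmt2, the gene for the histone H3 lysine 9 methyltransferase G9a. Activated B cells (B220+GL7+) and plasma cells (CD138+ with low or intermediate B220) were sorted from spleen 72 h after mice received lipopolysaccharide (LPS) by the tail vein, 50 µg in 100 µl, from a gate without dead, F4/80+, Cd11b+ or Thy1.2+ cells. Uninfected mice gave the naive B cells, which CD43 beads enriched without sorting. LPS, the way of isolation and the cell type therefore changed together between naive and activated cells and cannot be told apart. Each library came from 1000 cells. The mice's ages are not given in the labels, nor is it said that replicates came from separate animals, so p-values cover no more than the spread of these samples.

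All 9 receptors span the membrane several times and signal mainly through inhibitory G proteins, which turn a gradient of ligand outside the cell into directed movement. Naive B cells enter lymphoid tissue with the help of CCR7, settle in follicles through CXCR5, take positions at the follicle's edge through GPR183, and leave towards the sphingosine-1-phosphate of blood and lymph through S1PR1. Cells that become plasma cells leave the follicle, and CXCR4 draws them to the red pulp and the bone marrow, while CCR9 and CXCR3 lead subsets to the gut and to inflamed tissue.

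Estimated depth was 1.65 to 4.10 M reads (M for mega-reads) in naive, 2.70 to 10.98 M in activated and 5.23 to 7.05 M in plasma cell libraries. On the log2 scale a gene's median SD was 0.369 and 0.388 in naive Ctrl and KO, against 0.134 and 0.125 in activated and 0.133 and 0.126 in plasma cells, so naive values are the least precise. The 9 plasma cell markers examined summed to 13171 to 14877 in plasma cell Ctrl libraries and 1892 to 2107 in activated Ctrl libraries. Ehmt2 RNA over the whole gene was not called in any KO comparison. It was at 19.4 ± 7.31 in naive Ctrl and 17.0 ± 5.40 in KO, 22.3 ± 3.15 and 22.5 ± 0.817 in activated cells, and 17.2 ± 0.873 and 13.8 ± 1.28 in plasma cells (SD, n = 3), where all 3 KO libraries lay below all Ctrl libraries (change -0.30, adjusted p = 1.0). These values do not check the deletion, because the floxed part was not measured apart.

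In control cells the 9 receptors' RNA shrank from stage to stage. Their summed level, in RPKM scaled between libraries, was 1263 ± 124 in naive, 458 ± 9.12 in activated and 98.6 ± 4.02 in plasma cells (mean ± SD, n = 3 here and below). In KO the sums were 1138 ± 66.2, 361 ± 15.0 and 87.5 ± 12.5. In these bulk samples, fewer cells with a receptor and less of its RNA per cell cannot be told apart. Changes below are differences of log2(scaled RPKM + 1), which understate the change of genes near 1, and a change is called at an adjusted p under 0.05 in limma over 12787 tested genes. From naive to activated Ctrl cells all 9 receptors were called, 2 higher and 7 lower, where 58.4% of all tested genes were called (19% higher and 39.4% lower). From activated to plasma cells all 9 were called again, 2 higher and 7 lower, against 32.8% of all genes (16.1% higher and 16.7% lower). The pairs that rose differed: Ccr6 and Cxcr3 rose in the first step, Cxcr4 and Ccr9 in the second. The receptors' median change was -1.43 in the first step and -2.13 in the second, beside medians of -0.29 and -0.03 over all tested genes. Both all-gene medians depend on scaling: the first was -0.06 after quantile normalization and the second -0.14 with RPKM as deposited. Naive libraries also held more marker RNA of some other cells. The sum of the 5 deposited of 8 platelet markers ran from 62.3 to 370.2 in naive Ctrl but from 2.95 to 4.89 in activated Ctrl. That of the 5 deposited of 11 T cell markers ran from 17.1 to 71.7 and 7.84 to 8.42, and that of the 3 deposited of 10 erythroid markers from 342 to 448 and 10.2 to 12.9. Sums of monocyte and neutrophil markers were higher in naive Ctrl as well, whereas those of dendritic and NK cell markers overlapped. No gene of the platelet, T cell or erythroid list was at 0 in all libraries of a group. The part of such cells in the receptors' changes was not tested.

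**Figure D1:**
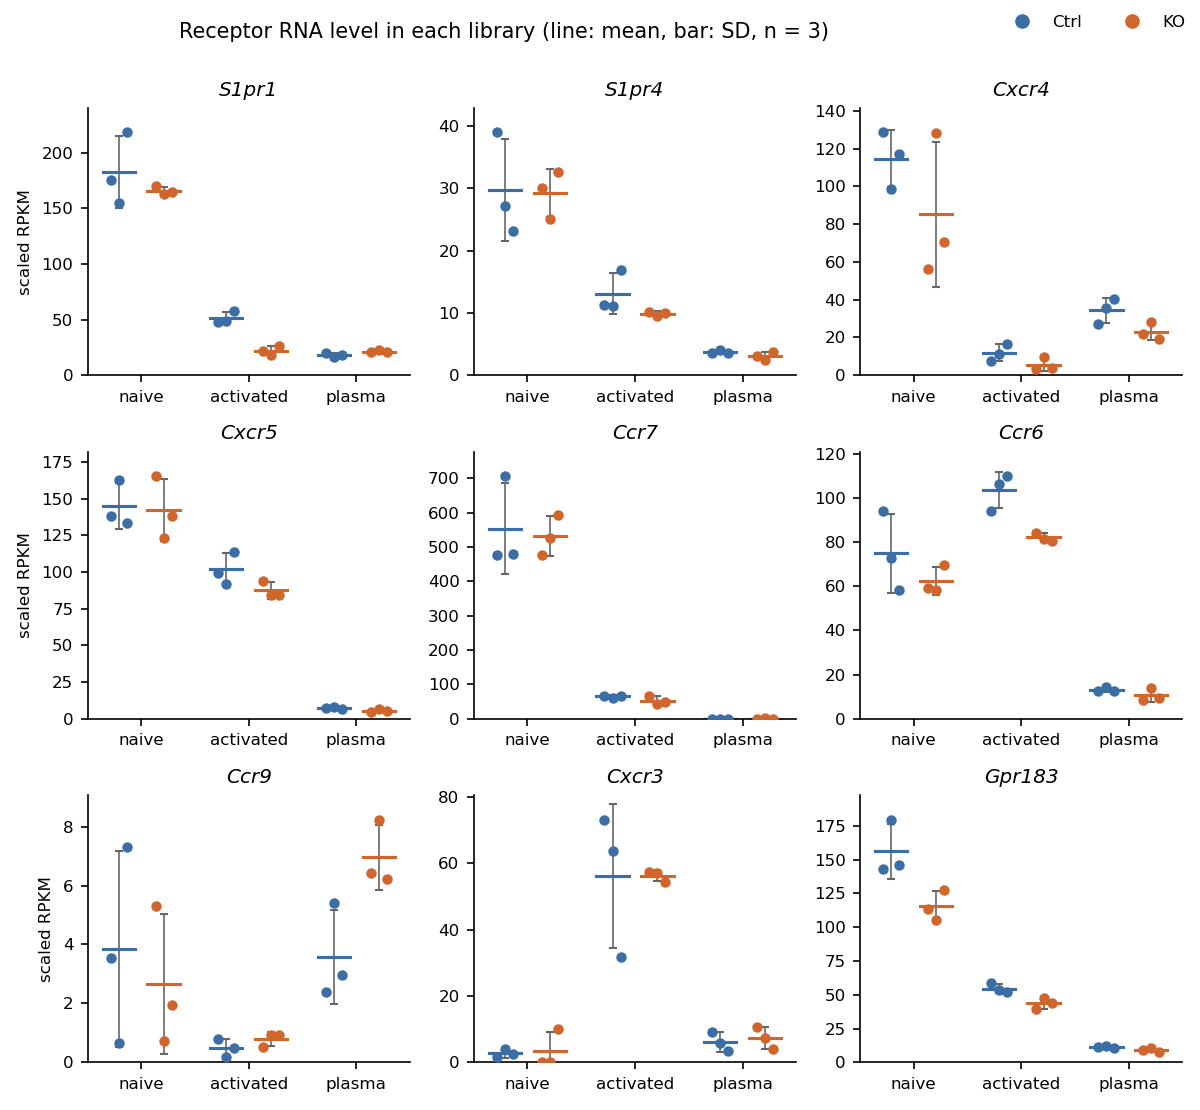
Scaled RPKM of each receptor in all 18 libraries (y axis, each panel with its own scale from 0), by cell type (x axis) and genotype (colour), with a line at the mean and a bar of 1 SD over 3 libraries. The activated KO libraries of S1pr1 sit between 18.5 and 25.9, below the activated Ctrl libraries at 47.4 to 57.5 and level with the plasma cells.

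S1pr1 (chr3:115710433-115715072, minus strand; GRCm38 as are all positions here), the receptor through which lymphocytes leave lymphoid tissue, was at 176, 155 and 218 in the 3 naive Ctrl libraries. It was at 47.4, 48.8 and 57.5 in activated Ctrl and at 19.9, 16.1 and 18.4 in plasma cell Ctrl. No library of one stage reached the range of the next, so the control order was a descent in 2 clear steps. The first step was -1.81 (SE 0.14, adjusted p = 1.1e-08) and the second -1.45 (SE 0.14, adjusted p = 9.8e-08). S1pr4 (chr10:81497747-81500132, minus strand), a second sphingosine-1-phosphate receptor found mainly on blood cells, was lower at every stage, at 39.0, 27.1 and 23.2 in naive Ctrl, 11.3, 11.1 and 16.9 in activated Ctrl and 3.55, 4.05 and 3.58 in plasma cell Ctrl. Its stages did not overlap either, and its steps were -1.12 (adjusted p = 1.9e-04) and -1.55 (adjusted p = 6.1e-06). The level of S1pr1 over that of S1pr4 was 4.51 to 9.40 in naive Ctrl, 3.402 to 4.40 in activated Ctrl and 3.97 to 5.59 in plasma cell Ctrl, so the ranges of the activated and plasma cell ratios overlapped while both receptors fell.

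Cxcr4 (chr1:128588199-128592293, minus strand), the receptor for the chemokine CXCL12 of bone marrow and splenic red pulp, did not descend in order. It was at 128, 98.5 and 117 in naive Ctrl, fell to 7.67, 11.4 and 16.7 in activated Ctrl and rose to 27.0, 35.7 and 40.3 in plasma cell Ctrl. Activated cells thus held the lowest values and plasma cells came back only part of the way, with no overlap between stages. The steps were -3.21 (SE 0.33, adjusted p = 4.3e-07) and 1.49 (SE 0.33, adjusted p = 0.0015), and plasma cells remained below naive cells by -1.72 (adjusted p = 2.0e-04). Ccr9 (chr9:123678439-123784330, plus strand), the receptor for the gut and thymus chemokine CCL25, had the same order of signs at a far lower level. It was at 3.56, 0.67 and 7.29 in naive Ctrl, 0.79, 0.194 and 0.50 in activated Ctrl and 2.39, 5.40 and 2.98 in plasma cell Ctrl. The activated Ctrl values rest on an estimated 8.60 to 29.6 reads per library. The naive libraries spread across the range of both other stages, whereas every plasma cell library lay above every activated one. Its steps were -1.43 (adjusted p = 0.015) and 1.58 (adjusted p = 0.014), and plasma minus naive was 0.15 (95% interval -0.85 to 1.15, adjusted p = 0.79). The first step was no longer called after quantile normalization (-0.72, adjusted p = 0.28), with array weights (-1.17, 0.057), or without naive Ctrl replicate 3 (-0.90, adjusted p = 0.11) or activated Ctrl replicate 3 (-1.28, 0.059), and the second without plasma cell Ctrl replicate 3 (1.32, 0.077) or activated Ctrl replicate 3 (1.43, 0.060).

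The 250 bases before the transcription start, from RefSeq on GRCm38.p6, were held for 6 of the 9 receptors and are shown for Cxcr4 and Ccr9, which fell and then rose, and for S1pr4 and Gpr183, which fell at both steps. Capitals mark CACCC or its reverse complement GGGTG, the short core that Krüppel-like factors such as KLF2 bind, searched on both strands. The windows are chr1:128592300-128592549 (minus strand), chr9:123766961-123767210 (plus strand), chr10:81500138-81500387 (minus strand) and chr14:121965194-121965443 (minus strand), written 5′ to 3′ along the gene. The Ccr9 window lies inside the span printed above for the gene. That span is from GENCODE and begins further upstream than the RefSeq start used here.
Cxcr4: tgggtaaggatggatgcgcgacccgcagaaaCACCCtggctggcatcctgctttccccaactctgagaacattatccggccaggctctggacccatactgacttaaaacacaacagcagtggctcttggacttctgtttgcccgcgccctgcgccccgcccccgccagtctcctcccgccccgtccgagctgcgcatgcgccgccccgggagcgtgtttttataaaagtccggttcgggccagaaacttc
Ccr9: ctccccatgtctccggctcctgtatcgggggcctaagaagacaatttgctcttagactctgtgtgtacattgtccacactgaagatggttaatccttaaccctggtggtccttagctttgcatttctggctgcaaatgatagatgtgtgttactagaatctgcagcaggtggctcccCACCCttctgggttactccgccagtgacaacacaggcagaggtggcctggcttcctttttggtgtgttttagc
S1pr4: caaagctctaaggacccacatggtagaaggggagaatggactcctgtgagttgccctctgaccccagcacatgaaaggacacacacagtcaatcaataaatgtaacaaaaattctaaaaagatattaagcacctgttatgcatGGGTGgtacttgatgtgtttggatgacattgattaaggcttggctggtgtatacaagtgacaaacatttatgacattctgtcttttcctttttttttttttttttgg
Gpr183: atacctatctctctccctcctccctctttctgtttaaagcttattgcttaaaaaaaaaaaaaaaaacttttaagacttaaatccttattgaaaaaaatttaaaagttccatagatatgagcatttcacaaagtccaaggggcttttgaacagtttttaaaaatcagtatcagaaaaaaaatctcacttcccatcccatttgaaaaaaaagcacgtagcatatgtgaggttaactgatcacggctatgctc
The letters occur once each in the windows of Cxcr4, Ccr9 and S1pr4 and not in that of Gpr183. Over the 7 windows of the 6 receptors (Ccr6 has a pair of starts) 3 held them, and of all 32851 windows of this length 52.0% did. G and C made up 61.2% of the Cxcr4 window, 50.4% for Ccr9, 38.8% for S1pr4 and 32.0% for Gpr183, and between these lay Cxcr3 at 48.0% and the windows of Ccr6 at 41.2% and 46.0%.

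Ccr7 and Cxcr5 fell at both steps, but not in parallel. Ccr7 (chr11:99144196-99155077, minus strand), which guides cells to the T cell zone, had the highest level of the 9 in naive cells. It was at 476, 707 and 479 in naive Ctrl, 67.7, 61.7 and 67.1 in activated Ctrl and 0.638, 0.175 and 0.565 in plasma cell Ctrl. The last of these values rest on an estimated 2.01 to 8.13 reads per library. The steps were -3.04 and -5.52 (SE 0.22 each, adjusted p = 4.2e-09 and 4.2e-13), so plasma cells kept almost no Ccr7 RNA. Cxcr5 (chr9:44511787-44561877, minus strand), which holds B cells in the follicle through CXCL13, lost little at first, at 138, 163 and 133 in naive Ctrl and 99.4, 92.0 and 114 in activated Ctrl. The drop came in plasma cells, at 7.11, 7.95 and 6.995. Its steps were -0.51 (adjusted p = 0.0048) and -3.62 (adjusted p = 3.5e-13). Cxcr5 over Ccr7 therefore changed at each stage in Ctrl, with ratios of 0.23 to 0.291 in naive, 1.47 to 1.70 in activated and 11.2 to 45.4 in plasma cells, none overlapping.

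Gpr183 (chr14:121952551-121965195, minus strand), also called EBI2, which follows the oxysterol 7α,25-dihydroxycholesterol to the outer follicle, was at 143, 180 and 146 in naive Ctrl, 58.5, 53.2 and 52.3 in activated Ctrl and 11.7, 12.4 and 11.01 in plasma cell Ctrl. Stages were well apart and libraries of a stage close together. The steps were -1.49 (adjusted p = 4.2e-08) and -2.13 (adjusted p = 1.4e-10). Ccr6 (chr17:8236043-8257141, plus strand), the receptor for CCL20, was slightly higher in activated than in naive cells. It was at 93.9, 72.6 and 58.2 in naive Ctrl, 94.3, 106 and 110 in activated Ctrl and 12.6, 14.4 and 12.5 in plasma cell Ctrl. The highest naive library almost reached the lowest activated one, and the rise of 0.49 (adjusted p = 0.019) was no longer called after quantile normalization (0.27, adjusted p = 0.22), with array weights (0.43, 0.16) or without activated Ctrl replicate 3 (0.46, 0.057), activated Ctrl replicate 4 (0.44, 0.063) or naive Ctrl replicate 3 (0.32, 0.11). The fall to plasma cells was -2.88 (adjusted p = 8.8e-11).

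Cxcr3 (chrX:101731535-101734269, minus strand), the receptor for the interferon-induced chemokines CXCL9, CXCL10 and CXCL11, was highest in activated cells. Ccr6 also had its highest Ctrl mean there, as had Ackr2, S1pr3 and Gpr34, chemoattractant receptors outside the 9. Cxcr3 was at 1.49, 4.17 and 2.56 in naive Ctrl, 73.1, 63.5 and 31.8 in activated Ctrl and 9.29, 5.92 and 3.35 in plasma cell Ctrl. Every activated library stood far above the other stages in Cxcr3, while naive and plasma cell libraries overlapped. The rise was 3.91 (SE 0.65, adjusted p = 7.8e-05) and the fall -2.99 (SE 0.65, adjusted p = 0.0012). Between plasma and naive cells it differed by 0.92 (95% interval -0.44 to 2.28, adjusted p = 0.22), which was called after quantile normalization (1.72, adjusted p = 0.042) and without naive KO replicate 3 (adjusted p = 0.032). From naive to plasma cells in Ctrl 7 of 9 receptors were called, all lower, against 68.7% of all tested genes (24.3% higher and 44.4% lower). Ccr9 and Cxcr3 were the 2 that were not.

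**Figure D2:**
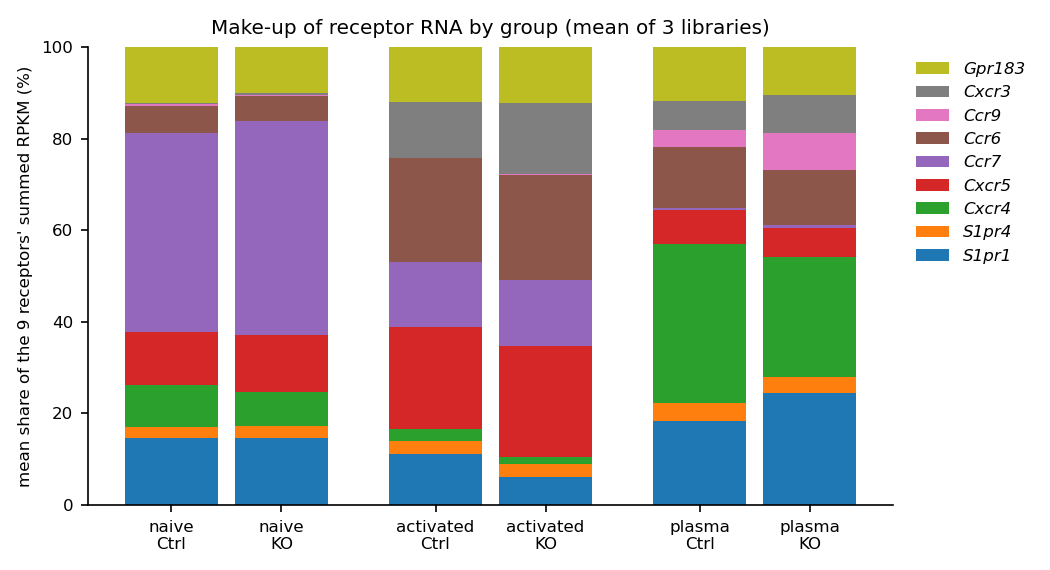
Share of each receptor in the summed scaled RPKM of the 9 (y axis, percent, mean of 3 libraries per group) for each cell type and genotype (x axis). Ccr7 makes up 43.5% of the sum in naive Ctrl, Ccr6 and Cxcr5 each near 22% in activated Ctrl, and Cxcr4 34.7% in plasma cell Ctrl.

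RPKM is a level per length, and the receptors were ordered by it within a group. The order rests on the authors' gene lengths and counting, which are not given, and its dependence on them was not tested. In naive Ctrl, Ccr7 made up 43.5 ± 5.90% of the sum, followed by S1pr1 (14.7 ± 3.72%), Gpr183 (12.3 ± 0.424%) and Cxcr5 (11.5 ± 0.158%), whose levels overlapped among libraries. In activated Ctrl, Ccr6 (22.6 ± 1.83%) and Cxcr5 (22.2 ± 1.996%) led and overlapped, ahead of Ccr7 (14.3 ± 0.486%). In plasma cell Ctrl, Cxcr4 led at 34.7 ± 5.88%, then S1pr1 at 18.4 ± 2.67% and Ccr6 at 13.3 ± 0.761%, and those 3 did not overlap. Cxcr4 over Cxcr5 was 0.0772 to 0.147 in activated Ctrl and 3.795 to 5.76 in plasma cell Ctrl. In naive KO Ccr7 led as well. In plasma cell KO Cxcr4 had the highest mean but overlapped S1pr1 (19.2 to 28.1 and 20.4 to 22.2), and in activated KO Cxcr5 (24.2 ± 0.555%) and Ccr6 (22.8 ± 0.444%) held the first places. S1pr1 made up 6.15 ± 1.08% of the sum in activated KO and 11.2 ± 1.04% in activated Ctrl, ranges that did not overlap. These percentages were not tested.

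The comparison of KO with Ctrl asks which receptors' RNA depends on the floxed Ehmt2 alleles at each stage. In activated cells S1pr1 was lower in KO, at 22.1, 18.5 and 25.9 against 47.4, 48.8 and 57.5 in Ctrl. The highest KO library lay well below the lowest control. The change was -1.18 (SE 0.14, 95% interval -1.47 to -0.89, adjusted p = 9.98e-05), and the KO libraries rest on an estimated 157 to 909 reads for the gene against 1028 to 1275 in Ctrl. It was the only one of the 9 receptors called, where 1.78% of all tested genes were called. It kept its call under every alternative run, from -1.30 to -1.06 when each library was left out in turn, and at -1.18 without the 6 naive libraries (adjusted p = 1.5e-05). S1pr4 in activated KO was at 10.2, 9.50 and 10.0 against 11.3, 11.1 and 16.9, a change of -0.35 that was not called (95% interval -0.78 to 0.08, adjusted p = 0.69). S1pr1 over S1pr4 was 1.94 to 2.58 in activated KO and 3.402 to 4.40 in activated Ctrl, without overlap. This ratio contains the S1pr1 level already given and was not tested. The share of gene pairs so separated was not counted.

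Marker sums also differed between the activated groups. The 9 B cell markers summed to 2768 to 2908 in activated KO and 3626 to 4105 in Ctrl, and the 9 plasma cell markers to 1182.5 to 1390 and 1892 to 2107. The 8 markers of activated B cells summed to 780.5 to 831 in KO and 686 to 766 in Ctrl. The 5 deposited of 11 T cell markers summed to 12.5 to 14.1 in KO and 7.84 to 8.42 in Ctrl, mostly Lck (11.03 ± 1.34 and 6.79 ± 0.546), while Il7r had a lower mean in KO (0.172 ± 0.127 and 0.421 ± 0.344). The 3 deposited of 10 erythroid markers summed to 45.6 to 63.3 and 10.2 to 12.9. This difference lay in the beta globins Hbb-bs (19.05 ± 4.09 in KO, 3.97 ± 0.327 in Ctrl) and Hbb-b2 (36.2 ± 4.801 and 7.01 ± 0.895), whereas Hba-a2 had a lower mean in KO (0.154 ± 0.133 and 0.471 ± 0.369). The 6 deposited of 8 dendritic cell markers summed to 38.4 to 43.1 in KO and 31.2 to 37.6 in Ctrl, and the 5 deposited of 8 platelet markers to 1.68 to 2.83 and 2.95 to 4.89. The 1 deposited of 7 NK cell markers, Prf1, ran from 2.87 to 4.49 and from 1.11 to 1.19. Sums of monocyte and neutrophil markers overlapped. No marker of these lists was at 0 in all libraries of either activated group. Their part in the lower S1pr1 was not tested.

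Cxcr4 had nearly as large a difference in activated cells but with more spread. It was at 3.20, 9.62 and 3.76 in KO against 7.67, 11.4 and 16.7 in Ctrl. KO replicate 3 lay inside the control range, and it is also the shallowest activated library. The change was -1.05 (SE 0.33, 95% interval -1.75 to -0.36, adjusted p = 0.15). It was called without activated KO replicate 3 (-1.47, adjusted p = 0.032), without the 6 naive libraries (-1.05, 0.031; 14.5% of all genes called) and with array weights (-1.14, 8.6e-04). Ccr6 (80.7 to 84.3 in KO, 94.3 to 109.9 in Ctrl) and Gpr183 (39.6 to 48.0 and 52.3 to 58.5) had lower, non-overlapping KO ranges with changes of -0.33 and -0.31 that were not called (adjusted p = 0.56 and 0.36). Ccr6 was called in the fit of the activated libraries alone (adjusted p = 0.026), where 11.3% of all genes were called, and Gpr183 with array weights (-0.39, adjusted p = 9.5e-04), where 19.1% were. With S1pr1 and S1pr4 this made 4 receptors whose KO libraries all lay below all control libraries, a separation that 16% of all tested genes had in that direction. Cxcr5 (-0.21, 95% interval -0.50 to 0.08) and Ccr7 (-0.34, -0.79 to 0.12) had overlapping ranges and were not called. Ccr9 was at 0.517 to 0.946 in KO and 0.194 to 0.79 in Ctrl. Cxcr3 was at 57.3, 57.0 and 54.4 in KO, inside the wide control range of 31.8 to 73.1, with a difference of 0.09 and a 95% interval of -1.28 to 1.45.

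**Figure D3:**
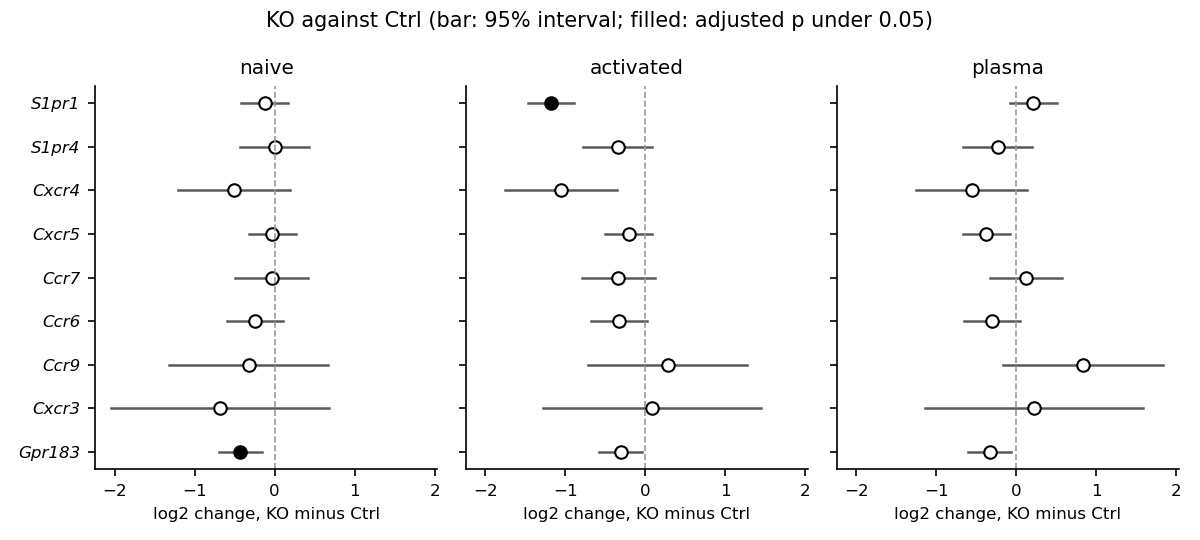
Change of each receptor in KO against Ctrl (x axis, difference of log2(scaled RPKM + 1)) in naive, activated and plasma cells, with the 95% interval of the limma fit over 18 libraries. Filled points have an adjusted p under 0.05. The fit gives a gene the same SE at every stage, so the intervals do not show the wider spread of naive libraries. S1pr1 in activated cells lies at -1.18 with an interval that ends at -0.89, and Gpr183 in naive cells at -0.43 passes narrowly.

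In plasma cells none of the 9 receptors was called between KO and Ctrl in limma, where 0.61% of all tested genes were called, and 2 receptors had an unadjusted p under 0.05, as had 750 of the 12787 genes. These were Cxcr5, at 4.72, 6.78 and 4.996 in KO against 7.11, 7.95 and 6.995 in Ctrl (change -0.37, 95% interval -0.67 to -0.08, adjusted p = 0.50), and Gpr183, at 9.21, 10.4 and 7.83 against 11.7, 12.4 and 11.01 (change -0.33, -0.60 to -0.06, adjusted p = 0.55). Both had KO ranges wholly below those of Ctrl. Ccr9, at 6.42, 8.23 and 6.20 in KO against 2.39, 5.40 and 2.98 in Ctrl, and S1pr1, at 20.7, 22.2 and 20.4 against 19.9, 16.1 and 18.4, had KO ranges wholly above. Such separation in either direction was seen in 24.8% of all tested genes. The change of Ccr9 was 0.84 (95% interval -0.16 to 1.84, adjusted p = 1.0). It was called without the 6 naive libraries (adjusted p = 0.036; 6.16% of all genes called) and with array weights (0.97, adjusted p = 0.0038). The 5 deposited of 11 T cell markers summed to 10.4 to 15.5 in plasma cell KO and 1.97 to 3.68 in Ctrl. The higher sum came from Cd3e (8.71 ± 1.49 in KO, 0.0767 ± 0.0667 in Ctrl) and Cd8b1 (3.13 ± 1.41 and 0.822 ± 0.338), while Lck (1.54 and 1.59), Cd4 (0.0559 and 0.0645) and Il7r (0.25 and 0.413) had slightly lower means in KO. The 3 deposited of 10 erythroid markers summed to 1.28 to 55.5 in KO and 0.25 to 0.764 in Ctrl. The 9 B cell markers summed to 1106 to 1287 in KO and 1480.3 to 1796 in Ctrl, with most of the difference in Cd79a (437 ± 32.8 and 775 ± 102). No marker of these 3 lists was at 0 in all libraries of either plasma cell group, and their part in these differences was not tested. Array weights, under which 12.8% of all genes were called, also called Cxcr5, Gpr183 and Ccr6. Cxcr4 was at 21.7, 28.1 and 19.2 in KO against 27.0, 35.7 and 40.3 in Ctrl, overlapping by 1 library, with a change of -0.56 (95% interval -1.25 to 0.14). Cxcr4 over S1pr1, the receptors of retention and exit, was 0.942 to 1.26 in plasma cell KO and 1.36 to 2.23 in Ctrl, which did not overlap. Neither gene was called between KO and Ctrl in these cells, the ratio was not tested, and the share of gene pairs so separated was not counted.

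In naive cells 1 of 9 receptors was called, against 7.23% of all tested genes. Gpr183 was at 114, 105 and 128 in KO and 143, 180 and 146 in Ctrl. The change of -0.43 (SE 0.13) passed only narrowly (adjusted p = 0.0498). The call was lost in 6 other settings and when any 1 of 16 of the 18 libraries was left out. The naive libraries fitted alone, like the fit with array weights, called 0 genes of any kind in this comparison, where limma over all libraries had 3072 genes at an unadjusted p under 0.05. S1pr1 was at 170, 163 and 165 in naive KO, inside the control range, with a difference of -0.13 (95% interval -0.42 to 0.16). Cxcr4 was at 56.1, 128 and 70.7 in naive KO and its difference of -0.51 had an interval of -1.20 to 0.19. Cxcr3 was listed at 0 in 2 naive KO libraries and at 9.98 in the remaining one, so that 1 library sets its level there. Without that library, naive KO replicate 3, the difference of -0.69 (adjusted p = 0.55) became -1.84 and was called (adjusted p = 0.014). The other 5 receptors differed by -0.33 to 0.002 and were not called.

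**Figure D4:**
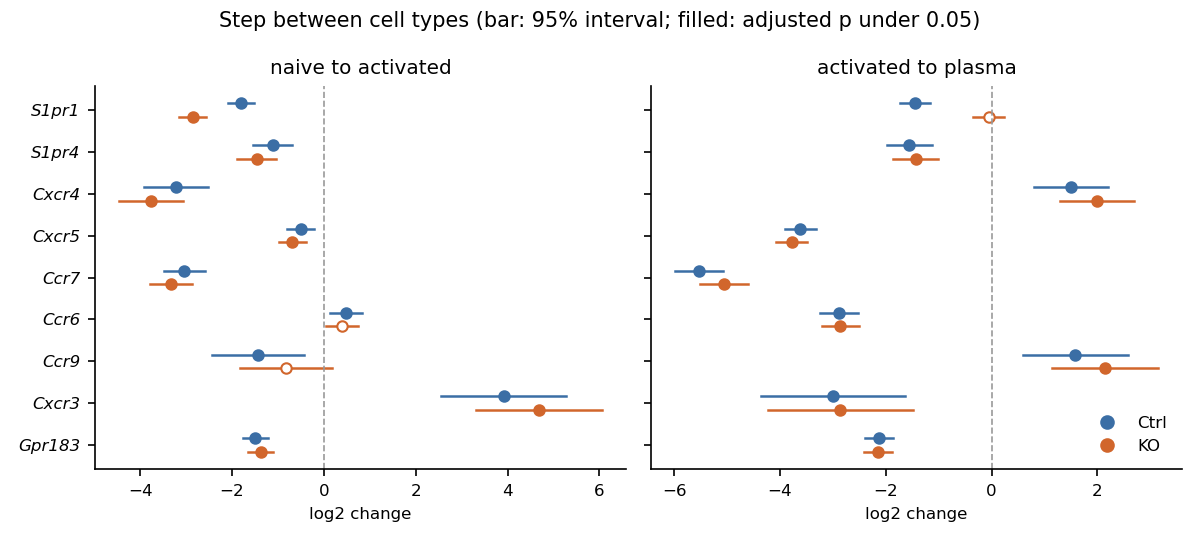
Change of each receptor between stages (x axis, difference of log2(scaled RPKM + 1)) for naive to activated and activated to plasma cells, in Ctrl and KO, with 95% intervals. These use the same SE of a gene for every step. Filled points have an adjusted p under 0.05. The intervals of Ctrl and KO lie apart for S1pr1, where the KO step from activated to plasma cells is -0.05 and the Ctrl step -1.45.

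The steps in KO were called for 7 of 9 receptors from naive to activated cells (1 higher and 6 lower), where 55.7% of all genes were called, 21.2% higher and 34.5% lower. From activated to plasma cells they were called for 8 of 9 (2 higher and 6 lower), against 33.1% of all genes, 15.8% higher and 17.4% lower. From naive to plasma cells they were called for 9 of 9 (2 higher and 7 lower), against 61.9%, 24.7% higher and 37.1% lower. The receptor that broke the pattern was S1pr1, which from activated to plasma cells went from 22.1, 18.5 and 25.9 to 20.7, 22.2 and 20.4 in KO, a change of -0.05 (95% interval -0.35 to 0.24, adjusted p = 0.88). All 3 plasma cell libraries lay within the activated range. Its step from naive to activated cells was -2.86 in KO (SE 0.14, adjusted p = 2.0e-11) and -1.81 in Ctrl. Activated and plasma cells thus overlapped in S1pr1 in KO and did not in Ctrl. Ccr6 from naive to activated cells was 0.40 in KO (adjusted p = 0.051; 0.028 to 0.047 when 1 of 5 of the libraries was left out, 0.032 with RPKM as deposited, 0.037 with a pseudocount of 5 and 0.025 in the libraries compared) and Ccr9 -0.83 (adjusted p = 0.15; -1.27 and 0.038 without naive KO replicate 2). The rise of Cxcr4 from activated to plasma cells was 1.99 in KO (adjusted p = 9.0e-05) and that of Ccr9 2.14 (adjusted p = 0.0015). Cxcr3 rose by 4.69 from naive to activated cells in KO (adjusted p = 1.0e-05). The fall of Cxcr3 to plasma cells in KO was -2.86 (adjusted p = 0.0018), and with a pseudocount of 0.1 it was -3.02 (adjusted p = 0.054). From naive to plasma cells in KO, Ccr9 rose by 1.31 (adjusted p = 0.023) and Cxcr3 by 1.83 (adjusted p = 0.021). The call for Ccr9 was lost with array weights and without plasma cell KO replicate 3 (1.202), naive KO replicate 2 (0.87) or naive KO replicate 3 (1.26). The call for Cxcr3 was lost with a pseudocount of 5 (0.74), in the fit of the 6 libraries compared, and without plasma cell KO replicate 1 (1.54) or 3 (1.78) or naive KO replicate 1 or 2 (1.25 each).

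The difference of the KO effect between stages was tested directly for each receptor. For S1pr1 the effect in plasma cells exceeded that in activated cells by 1.40 (SE 0.20, 95% interval 0.98 to 1.81, adjusted p = 0.0031), being 0.21 and -1.18. Of all tested genes 0.156% were called in this comparison, and S1pr1 was the only receptor among them. It was called under every alternative run, with adjusted p-values up to 0.037. The effect in activated cells was below that in naive cells by -1.05 (SE 0.20, 95% interval -1.47 to -0.64, adjusted p = 0.0098), again for 1 of 9 receptors, against 2.62% of all genes. This call was lost in the fit of the libraries compared (adjusted p = 0.059) and with array weights (-0.98, adjusted p = 0.21). Between plasma and naive cells 0 of 9 were called in limma (1.38% of all genes, smallest adjusted p 0.41), and 0 receptors had an unadjusted p under 0.05, where 2062 of all genes had. For the other 8 receptors no difference of the KO effect was called at any stage. Their intervals were widest for Cxcr3 (-1.79 to 2.06 for plasma minus activated) and narrowest for Gpr183 (-0.40 to 0.36). The 3 differences share groups with each other and are not independent.

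Among 13 regulators of these receptors' expression or display, all tested, 0 rose and 3 fell in activated KO cells, with a median change of -0.33 beside -0.02 over all genes, of which 1.78% were called. Klf3, a Krüppel-like repressor, was at 14.1 ± 1.67 in KO and 25.2 ± 1.88 in Ctrl (adjusted p = 0.0060). Tbx21 encodes T-bet, known to drive Cxcr3. It was at 14.3 ± 2.83 in KO and 36.2 ± 8.51 in Ctrl (adjusted p = 0.024). The difference of Cxcr3 in activated cells, 0.09, had a wide interval of -1.28 to 1.45 and was not called. The part of Tbx21 in the level of Cxcr3 was not tested. Foxo1, known to sustain receptors of naive lymphocytes, was at 22.7 ± 1.64 in KO and 35.8 ± 2.73 in Ctrl (adjusted p = 0.025). Klf2, the Krüppel-like factor known to drive S1pr1 in lymphocytes, was at 667 ± 72.9 in naive, 135 ± 30.1 in activated and 6.12 ± 1.53 in plasma cell Ctrl. In activated KO it was at 102 ± 11.98, which was not called. The KO libraries, at 88.45 to 110.9, all lay below the Ctrl libraries, at 117.4 to 170. Of all tested genes 16% had such a separation, and the part of Klf2 in the lower S1pr1 was not tested. Cd69, whose protein pulls S1PR1 from the surface, was at 286 ± 41.6 in naive and 40.9 ± 4.17 in activated Ctrl (adjusted p = 3.4e-12). LPS, the way of isolation and the cell type cannot be told apart in that difference. Cd69 was higher in naive KO than in naive Ctrl, at 372 ± 21.6 (adjusted p = 0.043). In Ctrl, 2 of the 13 rose and 8 fell from naive to activated, where 19% of all tested genes rose and 39.4% fell. From activated to plasma cells 2 rose and 11 fell, against 16.1% and 16.7% of all genes.

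Of 39 genes of receptor signalling and desensitisation 37 were tested, and in activated KO 0 rose and 2 fell, where 1.78% of all genes were called. Rgs2, a GTPase-activating protein that ends G protein signals, was at 4.77 ± 1.95 in KO and 11.6 ± 1.25 in Ctrl (adjusted p = 0.0075), and Rhoh, a GTPase of blood cells, at 23.5 ± 1.55 and 35.6 ± 0.734 (adjusted p = 0.037). Rgs13 was the 1 gene of the list that rose in naive KO (9.08 ± 4.97 against 1.26 ± 1.42), where 7.23% of all genes were called, and 0 were called in plasma cells (0.61% of all genes). From activated to plasma cells in Ctrl 3 of the 37 rose and 20 fell, with a median of -0.66, beside 16.1% and 16.7% of all genes and a median of -0.03. Coro1a, an actin regulator needed for T cells to leave the thymus, fell from 1132 ± 18.7 to 213 ± 19.4, and Pik3cg, the kinase that G protein-coupled receptors switch on, rose from 5.35 ± 0.414 to 61.1 ± 7.19.

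Of 31 other chemoattractant receptors 16 were deposited and tested. In activated KO 1 rose and 0 fell, where 1.78% of all genes were called. The 1 was Ccr1, at 7.01 ± 0.484 in KO and 2.03 ± 0.496 in Ctrl (adjusted p = 0.028). In naive KO Ackr2, a chemokine scavenger, rose (5.25 ± 4.03 against 0.605 ± 0.525, adjusted p = 0.0037), and 1 gene fell, where 7.23% of all genes were called. In Ctrl, 3 of the 16 rose and 6 fell from naive to activated cells, shares close to the 19% and 39.4% of all genes. Towards plasma cells 1 rose and 10 fell, against 16.1% and 16.7% of all genes, and S1pr3, another sphingosine-1-phosphate receptor, went from 33.0 ± 2.62 to 1.16 ± 0.435. Of 31 ligands and enzymes that make or remove ligands 16 were tested. In KO 1 fell in naive cells (Ccl3, 16.6 ± 1.89 against 59.2 ± 49.7 in Ctrl, adjusted p = 0.019), and 0 were called in activated or plasma cells. Of all genes 7.23% were called in naive, 1.78% in activated and 0.61% in plasma cells. The naive KO calls named for these lists (Cd69, Rgs13, Ackr2 and Ccl3) rest on the fit over all libraries, since the naive libraries alone called 0 genes.

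Across the 18 libraries, which share the 3 stages, some receptors' profiles ran together. Pearson's r of log2(scaled RPKM + 1) was 0.99 for Ccr7 with Gpr183, 0.97 for S1pr4 with Gpr183, 0.96 for Cxcr5 with Ccr7 and 0.95 for Cxcr5 with Ccr6. It was -0.86 for Cxcr4 with Cxcr3, which peaked where Cxcr4 was lowest. Among 8954 genes the profiles most like S1pr1 were those of Abcg1 (r = 0.985), Rasgef1b (0.983) and Rgs2 (0.982). For Ccr7 they were H2-Oa and Klf2 (0.997 and 0.996), for Cxcr5 Rcsd1 (0.997), for S1pr4 Itgb7 (0.991), for Gpr183 Il4ra (0.993) and for Ccr6 Irf8 (0.985). The closest profiles were less alike for Cxcr3 (Car13, 0.965), Cxcr4 (Irs2, 0.96) and Ccr9 (Gnptg, 0.908).

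The libraries do not mark strand, so reads of overlapping genes on opposite strands cannot be told apart. Gpr183 lies inside Ubac2 on the opposite strand without exonic overlap, Cxcr5 shares 109 of its 2614 exonic bases with Bcl9l, and the annotated Ccr9 locus shares 56 of 5265 with another transcript. That locus also overlaps the protein-coding genes Lztfl1 and Slc6a20a on the opposite strand, pseudogenes and a lincRNA, all without exonic overlap. The remaining 6 receptors overlap no annotated gene.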

How the data were processed

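RNA was measured in 18 libraries of spleen B lineage cells, prepared by SMART-seq v4 followed by Nextera XT, per the labels' protocols. The authors deposited RPKM values for 12960 genes; STAR and the build mm10 are named in the submitters' processing notes, their versions, the gene lengths and the counting being not given in the sources used here. Libraries were scaled by median of ratios (factors 0.903 to 1.07, over 8012 genes above 1 RPKM in all libraries). Genes with a group mean of at least 1 were tested (12787; 173 left out). log2(scaled RPKM + 1) was fitted with 6 group means over all 18 libraries in limma 3.58.1 (R 4.3.3, eBayes with a trend, two-sided), with Benjamini-Hochberg adjustment over all tested genes. The fit was checked on simulated data for KO against Ctrl in activated cells only. Groups came from titles and genotype labels. Depth was estimated from the steps between low RPKM values times gene length (known for 96.2% of genes); 39.6% to 47.1% of values used lay within 0.1 of a whole read, and such figures cover counting error only. Positions are from GENCODE M21. Named were the 9 receptors, Ehmt2, up to 4 called genes per list and comparison with the smallest adjusted p and a group mean of at least 5, and the 3 genes most correlated with each receptor; not all are printed, and some of them are not reported here. The members and lists were chosen with earlier results of these data known. Alternatives covered scaling, pseudocount, filters, the libraries fitted, weights, a replicate block and leaving out each library.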

Additional observations from a re-analysis of the deposited data

Results flagged for a closer look

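The KO effect on S1pr1 differed between stages by a direct test in limma over 12787 genes. It was 1.40 higher in plasma than in activated cells, where S1pr1 was called lower in KO. It was lower in activated than in naive cells by -1.05, a call lost in the fit of the libraries compared (adjusted p = 0.059) and with array weights (0.21). All 3 activated KO libraries lay below all 3 activated Ctrl libraries, as was so for 16% of all tested genes. The plasma cell KO libraries lay above theirs, but that change of 0.21 was not called, and 24.8% of all genes were separated there in either direction. The naive KO libraries lay within the range of naive Ctrl.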

How the results depend on the processing

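Of 990 receptor changes recomputed under other settings, 948 kept their direction and side of the threshold, 13 changed sign, 13 gained and 16 lost a call. With each library left out in turn the numbers were 1862, 43, 9 and 30 of 1944. No changed sign belonged to a called change.

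The count of receptors called between KO and Ctrl in naive cells went from 1 to 0 with RPKM as deposited, a pseudocount of 0.1, a group mean of at least 5, the naive libraries alone and array weights. In activated cells it went from 1 to 2 in the activated libraries alone, to 2 without the 6 naive libraries and to 3 with array weights. In plasma cells it went from 0 to 1 without the naive libraries and to 4 with array weights. For the KO effect in activated minus naive cells it went from 1 to 0 in the libraries compared and with array weights. The share of all genes called moved too: in the libraries compared alone it was 0% in naive and 11.3% in activated cells, against 7.23% and 1.78% over all libraries. The cause was not tested.

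With single libraries left out, the count of receptors called ran from 0 to 2 for KO against Ctrl in naive, 1 to 2 in activated and 0 to 0 in plasma cells. It ran from 7 to 9 for activated minus naive in Ctrl and 7 to 8 in KO, from 8 to 9 for plasma minus activated in Ctrl and 8 to 8 in KO, and from 7 to 8 for plasma minus naive in Ctrl and 7 to 9 in KO. For the differences of the KO effect it stayed at 1, 1 and 0.

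Uncalled changes that took the other sign were small. For KO against Ctrl they were S1pr4 in naive cells (-0.028 after quantile normalization, -0.00062 with a pseudocount of 5), Ccr9 in naive cells (0.0012 with array weights) and Cxcr3 in activated cells (-0.089 with array weights). For the KO effect in plasma minus activated cells they were Ccr6 (-0.10 with array weights) and Gpr183 (0.031 as deposited, 0.017 after quantile normalization, 0.045 with a pseudocount of 5 and 0.082 with array weights). For plasma minus naive they were Cxcr4 (0.065 after quantile normalization, 0.12 with array weights) and Ccr6 (0.028 after quantile normalization, 0.0041 with a pseudocount of 5).

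Leaving out 1 library moved these uncalled values across 0. For KO against Ctrl in naive cells they ran from -0.24 to 0.0071 for S1pr1, -0.16 to 0.21 for S1pr4, -0.14 to 0.066 for Cxcr5, -0.14 to 0.15 for Ccr7 and -0.95 to 0.20 for Ccr9. In activated cells Cxcr3 ran from -0.27 to 0.32, and in plasma cells Ccr7 from -0.061 to 0.38 and Cxcr3 from -0.10 to 0.56. The step of S1pr1 from activated to plasma cells in KO ran from -0.17 to 0.060, and Ccr9 in plasma minus naive Ctrl from -0.48 to 0.68. The KO effect in activated minus naive cells ran from -0.26 to 0.079 for Ccr6. In plasma minus activated cells it ran from -0.068 to 0.24 for S1pr4, -0.17 to 0.15 for Ccr6, -0.18 to 0.49 for Cxcr3 and -0.11 to 0.078 for Gpr183. In plasma minus naive cells it ran from -0.30 to 0.29 for Cxcr4, -0.027 to 0.42 for Ccr7, -0.25 to 0.11 for Ccr6 and -0.0057 to 0.20 for Gpr183.

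Of the genes called from naive to activated Ctrl cells 32.5% were higher, and 48.5% after quantile normalization; in KO it was 38.1% and 49.4%. From activated to plasma cells 49.0% were higher in Ctrl and 34.2% with RPKM as deposited, and 47.6% and 36.7% in KO. From naive to plasma cells 35.3% were higher in Ctrl and 50.0% after quantile normalization, and 39.98% and 50.02% in KO.

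The labels do not say whether equal replicate numbers mark a shared animal or day, and they were not taken to pair the samples. Deviations of same-numbered Ctrl and KO libraries correlated by -0.21, -0.17 and 0.07 in activated, 0.07, 0.20 and 0.31 in plasma and -0.00094, -0.19 and -0.12 in naive cells, and those of activated and plasma cells by -0.0085, 0.12 and 0.15 in Ctrl and 0.055, -0.19 and -0.025 in KO. With the replicate number as a block within cell type, the change of S1pr1 in activated cells stayed at -1.18 (adjusted p = 0.0018), and 0 receptors were called in naive cells, where Gpr183 had an adjusted p of 0.095. The block within genotype, shared by activated and plasma cells, left the difference of 1.40 for S1pr1 called (adjusted p = 0.037). Blocks for other comparisons were not run, since the numbers there are nested in the groups compared.

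Depth limits Ccr7 in plasma cells, Cxcr3 in naive cells, with an estimated 0 to 66.4 reads in KO and 5.38 to 30.4 in Ctrl, and Ccr9, with 6.37 to 111 in naive KO, 14.8 to 150 in naive Ctrl, 13.8 to 57.4 in activated KO and 8.60 to 29.6 in activated Ctrl.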
